A study of Mus musculus with 2 samples.

Results

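Galectins, S100 proteins and annexins are small cytosolic proteins, most of which bind sugars or calcium. They act at membranes and, once released, outside the cell. The 10 genes described here were taken by symbol from the 46398 gene symbols of both deposited tables, without use of their values: 2 galectins (Lgals1, Lgals3), 4 S100 genes (S100a4, S100a6, S100a10, S100a11) and 4 annexins (Anxa1, Anxa2, Anxa5, Anxa6). Each had 1 row, and all 10 passed the filter of a mean of at least 1 FPKM. Earlier results of these data were known, however, when the 10 were chosen.

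The values come from RNA sequencing of effector regulatory T cells, the activated subset of the Foxp3-expressing CD4 T cells that restrain other immune cells. There were 2 libraries, 1 from Nrn1+/- mice and 1 from Nrn1-/- mice, both of strain C57BL/6 on the Foxp3DTRgfp background, in which green fluorescent protein marks Foxp3-expressing cells. The sort took cells that were, among other criteria, CD4+ CD25+, CD44 high and Foxp3 reporter positive. The control carries 1 intact Nrn1 allele by its genotype label, although its title calls it wild type, and the age, sex and number of mice were not given in the sources used here. The knockout below is Nrn1-/- and the control Nrn1+/-. Values are FPKM, which divide a gene's fragments by transcript length and library size, so levels can be compared between genes. With 1 library per genotype there is no replicate error and no p-value, and every difference below is one between these libraries. Nrn1, the targeted gene, was at 66.5 FPKM in the control and 4.62 FPKM in the knockout.

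Galectins recognise galactose-containing sugars on glycoproteins. Galectin-1, the product of Lgals1, is made by regulatory T cells and is known as one of their suppressive factors, and galectin-3, the product of Lgals3, can cross-link surface glycoproteins. S100 proteins are paired EF-hand proteins, most of them calcium sensors, that bind and alter other proteins, and annexins bind phospholipid membranes when calcium rises. The families meet in a complex of S100a10 with annexin A2 that also binds the giant scaffold protein Ahnak beneath the plasma membrane.

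The 10 genes did not differ in 1 direction. In the Nrn1-/- library Lgals1, Anxa5 and Anxa6 were higher and the other 7 lower, with a median log2 ratio of -0.20 against 0.04 over 10695 protein-coding genes. Ratios are log2((Nrn1-/- + 1)/(Nrn1+/- + 1)), where the pseudocount of 1 FPKM understates the difference of low genes. Folds and quoted ratios of FPKM carry no pseudocount. At least 1.5-fold on the log2 scale were 2 genes, Anxa1 and S100a4, both lower. Of all 12344 genes tested, 5.27% were at least 1.5-fold lower and 7.5% at least 1.5-fold higher, and of protein-coding genes 3.69% and 7.01%. As deposited the summed level of the 10 genes was nearly the same, 1566 FPKM in the control and 1590 FPKM in the knockout. The whole tables summed to 645876 FPKM in the control and 790935 FPKM in the knockout, so this likeness depends on the scaling. Protein-coding genes alone summed to 593035 and 647544 FPKM, so most of the gap between the full sums lay in other rows. Less RNA per cell and fewer cells of a kind cannot be told apart in bulk libraries.

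**Figure D1:**
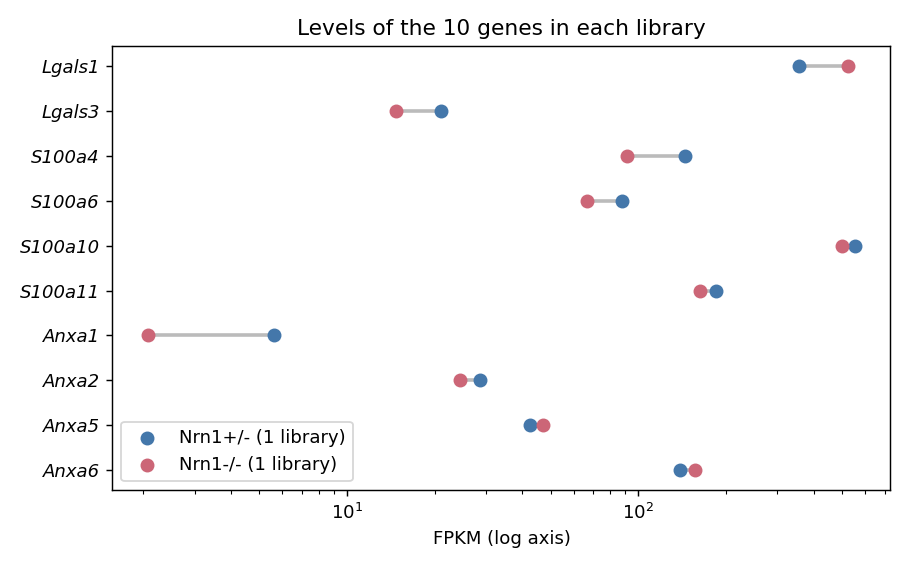
Level of each of the 10 genes in FPKM on a log axis, with 1 point for the Nrn1+/- library and 1 for the Nrn1-/- library. Anxa1, from 5.64 to 2.07 FPKM, has the widest gap, and Lgals1 is the gene that is most clearly higher in the knockout.

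The order of the levels was nearly the same in both libraries. S100a10 and Lgals1 stood at the top and exchanged places, S100a4 and Anxa6 exchanged ranks 4 and 5, and S100a11, S100a6, Anxa5, Anxa2, Lgals3 and Anxa1 kept theirs. Levels ran from 5.64 to 555 FPKM in the control and from 2.07 to 523 FPKM in the knockout. Among protein-coding genes S100a10 ranked 129 and 156 from the top, and Lgals1 ranked 202 and 150. S100a4 went from rank 592 to rank 1178 and Anxa1 from rank 8476 to rank 9903, measures that do not depend on how the libraries were scaled. The steps between low FPKM values allow the fragments behind a value to be estimated, here as if all lay on the principal transcript of the annotation. The 95% intervals below are exact binomial intervals for the ratio of FPKM from those fragments, and cover counting error only.

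Of the galectins, Lgals1 (ENSMUSG00000068220.5, GRCm38 chromosome 15, 78926725 to 78930465, plus strand) stood at 357 FPKM in the control and 523 FPKM in the knockout. That was 1.46-fold higher (log2 ratio 0.55, interval 1.43 to 1.5, about 10904 and 12493 fragments), just short of the 1.5-fold threshold. Lgals3 (ENSMUSG00000050335.15, chromosome 14, 47367751 to 47386160, plus strand) went the other way, from 21.02 to 14.78 FPKM. It was 1.42-fold lower (log2 ratio -0.48), with an interval of 0.641 to 0.771 for the ratio. The control held 17.0 times as much Lgals1 as Lgals3 per length and the knockout 35.4 times, a 2.08-fold difference that no scaling of whole libraries can alter.

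The wider galectin family was mixed as well. Of 10 listed genes 9 had a row and 7 a mean of at least 1 FPKM, of which 3 were higher and 4 lower. Lgals9, galectin-9, a ligand of the inhibitory receptor Tim-3, was the second most abundant at 70.4 and 62.3 FPKM. Lgals8, a galectin with a pair of sugar-binding domains that marks damaged vesicles, stood at 29.3 and 18.1 FPKM (log2 ratio -0.67). Lgals4, best known from gut epithelium, was lower at 9.52 and 5.49 FPKM, while Lgals7, best known from stratified epithelium, was higher at 7.62 and 14.2 FPKM (log2 ratio 0.82). Lgalsl, a galectin-related gene, was at 2.97 and 4.56 FPKM. Lgals2 was listed at 0 in both libraries and Lgals12 stayed below 0.1 FPKM. Lgals1 thus took 71.7% of the family's summed FPKM in the control and 81.4% in the knockout, and Lgals9, Lgals8 and Lgals3 each took a smaller share in the latter.

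**Figure D2:**
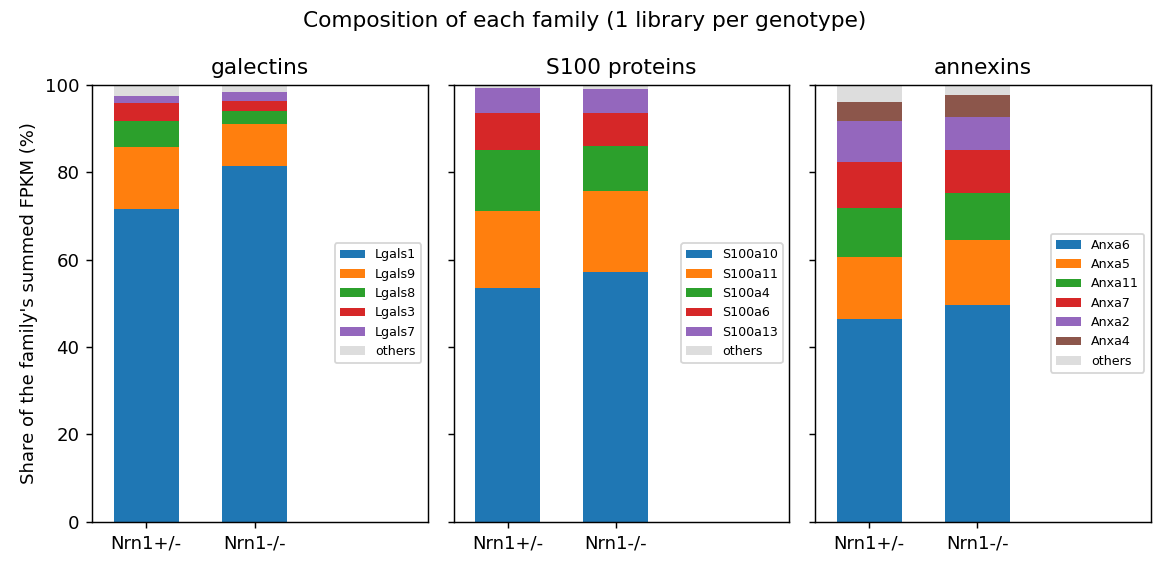
Share of each family's summed FPKM taken by its genes, in percent, with 1 bar per library and genes under 2% in both libraries pooled as others. The share of Lgals1 is 71.7% and 81.4%, that of S100a10 53.4% and 57.1% and that of Anxa6 46.5% and 49.6%.

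All 4 S100 members lie on chromosome 3 and all 4 were lower in the knockout, by different amounts. S100a4 (ENSMUSG00000001020.8, 90603771 to 90606045, plus strand), which binds non-muscle myosin and promotes cell motility, stood at 144 FPKM in the control and 91.7 FPKM in the knockout. It was 1.57-fold lower (log2 ratio -0.65, interval 0.590 to 0.684, about 2111 and 1089 fragments). At its level, a mean of 100 FPKM or more, 2.99% of the 1004 protein-coding genes were 1.5-fold lower or beyond and 11.1% were 1.5-fold higher or beyond. Genes of that level leaned upwards, with 74.1% higher in the knockout, against 2 of the 5 members that reach it.

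S100a6 (ENSMUSG00000001025.7, 90612882 to 90624181, plus strand), known as calcyclin, starts 9.11 kb beyond S100a4. It stood at 87.8 and 66.5 FPKM, 1.32-fold lower (interval 0.708 to 0.809). S100a10 (ENSMUSG00000041959.13, 93555080 to 93564643, plus strand), the partner of annexin A2, differed less, at 555 and 501 FPKM (1.11-fold lower, interval 0.880 to 0.927). S100a11 (ENSMUSG00000027907.4, 93520488 to 93526287, plus strand), which binds annexin A1, was at 185 and 162 FPKM (1.14-fold lower, interval 0.829 to 0.931). The last pair start 34.6 kb apart and some 2910 kb beyond S100a6. Their ratio to each other was 3.01 in the control and 3.09 in the knockout, while the ratio of S100a10 to S100a4 went from 3.85 to 5.47.

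Along the chromosome the 11 listed S100 genes around S100a4 were a mix of expressed and near-silent genes. S100a13, a calcium-binding export factor, stood at 59.7 and 47.3 FPKM (log2 ratio -0.33) and S100a1, which starts next to it on the opposite strand, at 6.916 and 6.999 FPKM. S100a3 was at 1.499 and 1.156 FPKM, and S100a2, which lies within the same group and was not on the list, at 0 and 0.219 FPKM. The other 6 of that group were at or below 0.264 FPKM in both libraries, and S100a8 and S100a9, the calgranulins of neutrophils and monocytes, were listed at 0 in both. Over the whole family 7 of 16 genes reached a mean of 1 FPKM, of which 6 were lower and S100a1, with a log2 ratio of 0.02, was marginally higher. S100a1 turned lower after centring and with each other scaling. The family's summed level was 1040 FPKM in the control and 878 FPKM in the knockout.

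**Figure D3:**
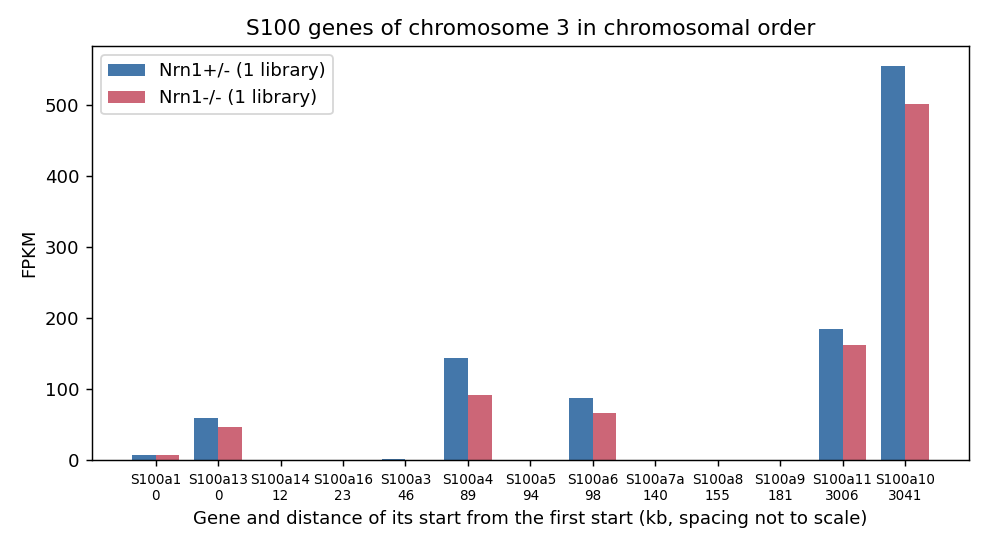
FPKM of the 13 listed S100 genes of chromosome 3 in each library (1 bar per library), in chromosomal order, with the distance of each start from the first start in kb written under the gene. The 4 members and S100a13 carry nearly all of the signal, and each is lower in the knockout.

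S100a4 and S100a11 share part of their transcript sequence with other annotated genes. For S100a4, 47.4% of the 50-base words of its transcripts also occur in Gm42674, a read-through gene across its exons that the deposited tables list at 1.29e-14 and 1.27e-11 FPKM. For S100a11, 41.1% occur in other genes, chiefly the processed pseudogene Gm12854 at 7.69 and 8.44 FPKM. How the authors' counting divided such fragments was not given in the sources used here. Anxa2 shared 1.35% of its words with the antisense gene Gm16144, listed at 0.0624 and 0 FPKM, and the other 7 genes shared none.

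The annexins among the 10 genes went both ways. As deposited Anxa1 had the widest log2 ratio of the 10, but with a pseudocount of 5 S100a4 (-0.63) was past Anxa1 (-0.59). Anxa1 (ENSMUSG00000024659.13, chromosome 19, 20373428 to 20390944, minus strand), a glucocorticoid-induced annexin that dampens inflammation through formyl peptide receptors, stood at 5.64 FPKM in the control and 2.07 FPKM in the knockout. It was 2.72-fold lower without the pseudocount and had a log2 ratio of -1.11 with it. On the log2 scale, with the pseudocount, 0.262% of protein-coding genes were at least 2-fold lower. That share is over genes of all levels tested and not those near the level of Anxa1. Anxa1 was also the lowest of the 10, resting on about 432 and 122 fragments, with an interval of 0.298 to 0.450 for the ratio. Anxa2 (ENSMUSG00000032231.13, chromosome 9, 69453620 to 69491795, plus strand), the membrane-bridging partner of S100a10, was at 28.5 and 24.4 FPKM (1.17-fold lower, interval 0.794 to 0.919).

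The other annexins among the 10 were slightly higher. Anxa5 (ENSMUSG00000027712.12, chromosome 3, 36448923 to 36475894, minus strand), whose protein binds exposed phosphatidylserine, stood at 42.6 and 47.3 FPKM (1.11-fold higher, interval 1.06 to 1.17). Anxa6 (ENSMUSG00000018340.12, chromosome 11, 54979108 to 55033445, minus strand), a double-length annexin that binds cholesterol-rich and endosomal membranes, stood at 139 and 157 FPKM (1.13-fold higher, interval 1.10 to 1.15). Rescaling the tables to a common sum of 1000000 turned both lower, to log2 ratios of -0.14 and -0.12. Anxa6 was 24.7 times the level of Anxa1 in the control and 75.7 times in the knockout, and the ratio of S100a10 to its partner Anxa2 was 19.5 and 20.6.

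Of 12 annexin genes 9 reached a mean of 1 FPKM, with 5 higher and 4 lower as deposited. With a sum of 1000000 over all genes 2 were higher and 7 lower, where the median log2 ratio of all genes tested was -0.25. Anxa3 was lower at 5.52 and 3.19 FPKM (log2 ratio -0.64), Anxa4 stood at 12.5 and 15.7 FPKM, and Anxa9 at 0.815 and 1.28 FPKM. Anxa7, at 31.4 and 31.1 FPKM, and Anxa11, at 33.2 and 33.9 FPKM, differed least. Anxa11 was lower with upper-quartile scaling and with either rescaled sum. Anxa8, Anxa10 and Anxa13 stayed below 1 FPKM in both libraries.

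**Figure D4:**
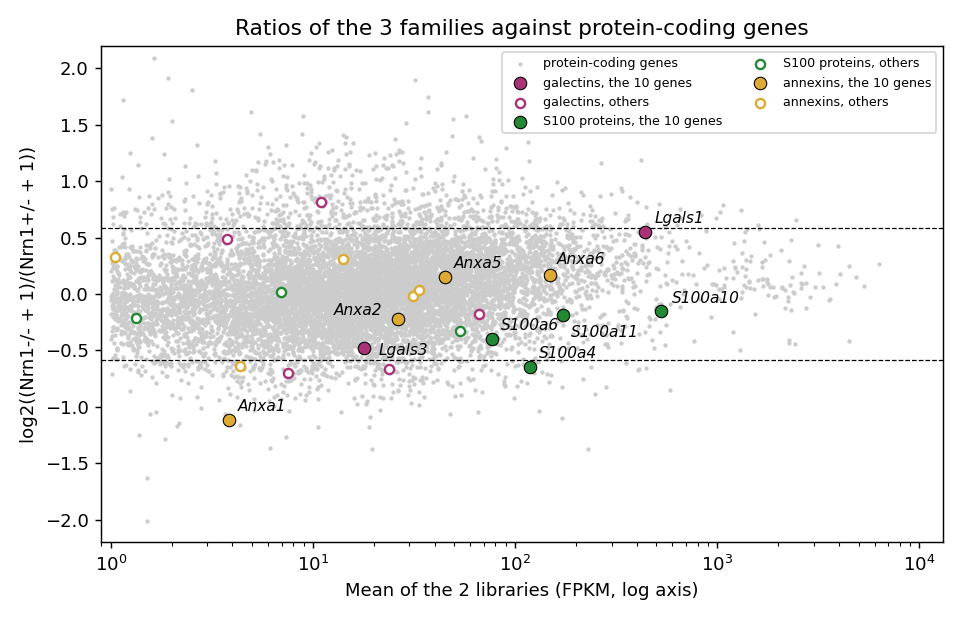
Log2 ratio of each protein-coding gene against its mean FPKM (log axis), with the 10 genes as filled points, their other family members as open points and 1.5-fold as dashed lines; 1 protein-coding gene lies outside the plotted range. Anxa1 and S100a4 lie below the lower line and Lgals1 lies just under the upper one.

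Both members at least 1.5-fold lower had the TATA box letters TATAAA shortly before their RefSeq start (GRCm38.p6). The 30 bases from 40 to 11 before the start are shown for them and for S100a6, the neighbour of S100a4, which was added after its values were seen. Capitals mark TATAAA, searched on both strands. S100a4 was read at chr3:90603730-90603759 (plus strand), S100a6 at chr3:90612854-90612883 (plus strand) and Anxa1 at chr19:20390682-20390711 (minus strand). The windows of S100a6 and Anxa1 touch annotated exons of those genes.
S100a4: ctggcagggTATAAAtaggtcagattgttg
S100a6: ggacactgctctcgggctggcagaaggttc
Anxa1: tcatatccTATAAAatcaggagtccaaccc

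Of the 10 genes 7 had a promoter entry, and 3 of these held TATAAA in the 250 bases before the start, against 12.4% of 32851 entries. The match began 31 bases before the start in S100a4, 32 in Anxa1 and 17 in Anxa2. The AP-1 motif TGANTCA, found in 6.75% of entries, occurred 2 times in S100a11 and 1 time in Anxa2. The GC box GGGCGG, found in 32.7%, occurred 3 times each in S100a11 and Anxa2 and 1 time in Lgals3. The glucocorticoid receptor half-site AGAACA, found in 16.1%, occurred in S100a6 and not in this window of Anxa1. Such matches describe letters and not bound sites.

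The genes that work with these proteins also went both ways. Of 18 partner and receptor genes with a row 10 reached a mean of 1 FPKM, 5 higher and 5 lower. With a sum of 1000000 over all genes 2 were higher and 8 lower, where the median log2 ratio of all genes tested was -0.25. Ahnak, the scaffold of the S100a10 and annexin A2 complex, was lower (35.5 and 20.5 FPKM, log2 ratio -0.77), as was Ager, the receptor RAGE that binds S100 proteins (10.4 and 5.81 FPKM, log2 ratio -0.74). Cacybp, which encodes the calcyclin-binding protein, a partner of S100a6, was higher (78.4 and 125 FPKM, log2 ratio 0.67), and so was Plaur, the urokinase receptor (2.196 and 4.750 FPKM, log2 ratio 0.85). Myh9, the myosin bound by S100a4, was at 257 and 254 FPKM. The formyl peptide receptor genes Fpr1 and Fpr3 were listed at 0 in both libraries and Fpr2 stayed below 0.1 FPKM.

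Of 10 galectin counter-receptor genes 7 were lower, 1 of them by 1.5-fold. With a sum of 1000000 over all genes 9 were lower and 4 passed 1.5-fold. Of all 12344 genes tested 47.7% were lower as deposited and 5.27% at least 1.5-fold lower. With the full sum their median log2 ratio was -0.25, and 2179 of them were at least 1.5-fold lower. The counter-receptor gene past 1.5-fold as deposited was Cd7, a glycoprotein that galectin-1 binds (7.23 and 3.03 FPKM, log2 ratio -1.03). Ptprc, which encodes CD45, stood at 459 and 360 FPKM, and Cd2 at 635 and 465 FPKM. Of 13 measured enzymes and carriers that build galectin-binding glycans 7 were higher and 6 lower, with none at 1.5-fold and a median of 0.03, but with a sum of 1000000 over all genes all 13 were lower. The highest of these were B3gnt2, which extends lactosamine chains (59.8 and 61.1 FPKM), and Mgat1, which starts branched N-glycans (37.3 and 44.3 FPKM).

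Of 9 measured glucocorticoid response genes 8 were lower, with a median log2 ratio of -0.34, where 47.7% of all genes tested were lower. The part of this list in the lower Anxa1 was not tested. Tsc22d3, which encodes the glucocorticoid-induced leucine zipper, was at 24.7 and 12.4 FPKM (log2 ratio -0.95), and Ddit4, an mTORC1 inhibitor, at 122 and 78.1 FPKM. Fkbp5, an immunophilin of the receptor complex, was the exception at 24.2 and 36.1 FPKM. The receptor gene Nr3c1 stood at 29.3 and 23.0 FPKM.

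As companions of Lgals1 and the S100 genes, 20 cytoskeletal and motility genes of activated T cells were listed. As deposited 14 were higher and 6 lower with a median of 0.07, where 52.3% of all genes tested were higher. Most of the 20 averaged 100 FPKM or more, a level at which 74.1% of protein-coding genes were higher. With upper-quartile scaling 8 were higher and 12 lower, where the median of all genes tested was -0.10. Tagln2, an actin-binding protein, passed 1.5-fold (196 and 302 FPKM, log2 ratio 0.62). Vim (675 and 673 FPKM), Capg (678 and 696 FPKM), Crip1 (249 and 253 FPKM) and Emp3 (91.6 and 92.5 FPKM) were nearly level. The most abundant, Actb (2674 and 3608 FPKM) and Tmsb4x (2244 and 2066 FPKM), went opposite ways.

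Other features of the libraries moved alongside. All 24 cell division genes were higher in the knockout, 23 of them by at least 1.5-fold, with sums of 1091 and 2264 FPKM. The widest were Ccnb1, Cdc20, Plk1, Cdk1 and Ccna2, with log2 ratios from 1.40 to 1.61, and their part in the differences of the 10 genes was not tested. Of 14 effector regulatory T cell markers 11 were lower as deposited (median -0.20), none by 1.5-fold. Tnfrsf4 was at 836 and 810 FPKM and Foxp3 at 257 and 195 FPKM. Of 10 T cell markers 7 were lower as deposited (median -0.20), where 47.7% of all genes tested were lower. With a sum of 1000000 over all genes 13 effector markers were lower, 5 of them by 1.5-fold. All 10 T cell markers were then lower, 4 of them by 1.5-fold. With that scaling all 12344 genes tested had a median log2 ratio of -0.25, and 2179 of them were at least 1.5-fold lower. Among genes that mark naive T cells, Klf2, a transcription factor of resting T cells, was at 75.7 and 47.4 FPKM. Il7r, the interleukin-7 receptor, was at 20.4 and 13.2 FPKM, and both were beyond 1.5-fold lower. Not every gene of that kind was, with Tcf7 at 72.6 and 64.3 FPKM and Lef1 slightly higher as deposited at 69.5 and 73.3 FPKM. The part of these markers in the lower S100a4 and Anxa1 was not tested.

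S100 and annexin genes are abundant in myeloid cells, so the markers of such cells were read as well. Of 17 monocyte and macrophage markers 4 reached 1 FPKM and their sum was 39.1 and 29.8 FPKM, with C1qa, C1qb, C1qc and Marco at 0 in both libraries and Lyz2 at 0.599 and 0.448 FPKM. The 11 neutrophil markers summed to 2.34 and 2.47 FPKM, nearly all of it Ltf, with S100a8, S100a9, Camp, Retnlg and Mmp8 at 0 in both. B cell markers summed to 9.31 and 11.7 FPKM, plasma cell markers to 1.98 and 3.96 FPKM, dendritic cell markers to 8.59 and 9.32 FPKM, and CD8 T and NK cell markers to 13.2 and 13.3 FPKM. Mast cell and basophil markers summed to 4.34 and 2.39 FPKM, erythroid and platelet markers to 3.00 and 2.11 FPKM, and stromal and endothelial markers to 51.2 and 37.4 FPKM.

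Because the scaling between the libraries is not known, each ratio was recomputed under other scalings. The median log2 ratio of all genes tested was 0.02 as deposited, -0.10 with upper-quartile scaling or a sum of 1000000 over protein-coding genes, and -0.25 with a sum of 1000000 over all genes. Under all 6 alternative scalings and pseudocounts, Anxa1 and S100a4 were at least 1.5-fold lower and Lgals1 was higher and below 1.5-fold. A stricter filter of a mean of at least 5 FPKM left out Anxa1, which averaged 3.86 FPKM. Log2 ratios ranged from -1.43 to -0.59 for Anxa1, from -0.94 to -0.63 for S100a4 and from 0.26 to 0.55 for Lgals1. Lgals3 passed 1.5-fold lower in 3 of 6 alternatives and S100a6 in 1 of 6. S100a10, S100a11 and Anxa2 were lower in all 6 without passing 1.5-fold.

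**Figure D5:**
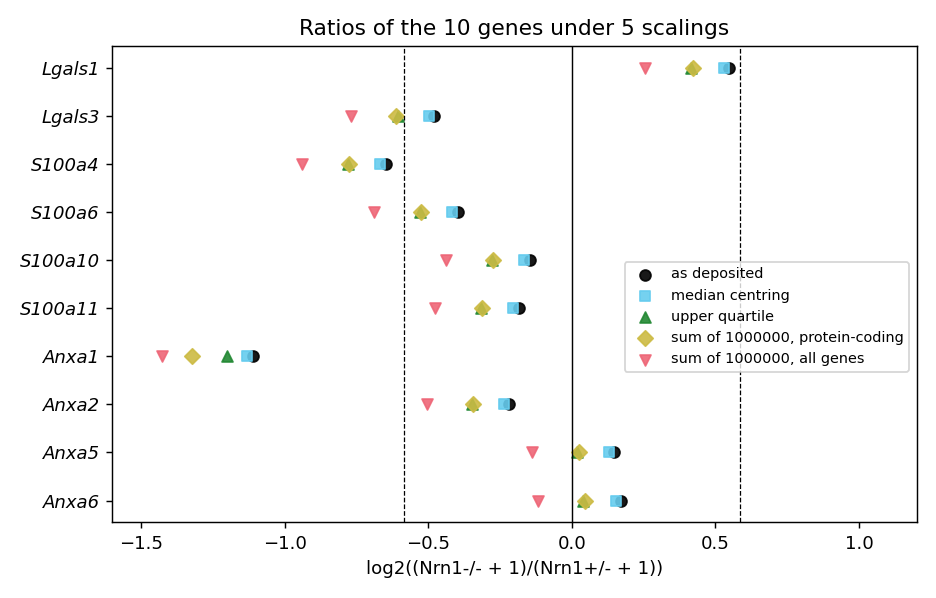
Log2 ratio of each of the 10 genes as deposited and under 4 other scalings (1 symbol each), with 0 as a solid line and 1.5-fold as dashed lines. Anxa1 and S100a4 lie left of the lower dashed line throughout, Lgals1 stays right of 0, and Anxa5 and Anxa6 cross 0 with a sum of 1000000 over all genes.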

How the data were processed

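The libraries, 1 per genotype, were made from poly(A) RNA of sorted effector Treg cells. The authors deposited FPKM per gene. The unit was read from the values and from the mention of Cuffnorm in the submitters' processing notes, beside TopHat, Cuffdiff and FastQC, with builds mm10 and GRCm38. Versions, filters and scaling of the libraries were not given in the sources used here, which is why 4 scalings were tried. Each table held 46511 rows, and rows of the 82 repeated symbols were added up. Positions and transcripts came from GENCODE M21 on GRCm38, to which 46000 identifiers matched, and promoters from RefSeq. No protein sequences were used here, and Lgals1, S100a10 and Anxa6 had no promoter entry.

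The members were taken by symbol and not by their values. Earlier results of these data were known, however, when the members, gene lists and thresholds were chosen. Genes averaging 1 FPKM or more were compared as log2 ratios with a pseudocount of 1, and no test was run. Lists are described by counts and medians. Named are the members, their families, and of each other list the genes past 1.5-fold or its 2 highest, with further genes chosen after their values were seen. The naive T cell marker list is not reported here as a whole.

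Fragments were estimated from single-transcript genes. FPKM times length, less 220 and 200 bases, fell within 0.1 of whole multiples of 0.019 and 0.0251 FPKM times kilobase for 96.6% of 2417 and 96.9% of 2373 low values. The Nrn1+/- library held 1.32 times as many fragments if each was divided by its own total. Calculations were tested on simulated data and used Python 3.11.15, pandas 2.3.3, numpy 2.4.6 and SciPy 1.17.1.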

Additional observations from a re-analysis of the deposited data

How the results depend on the processing

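With 1 library per genotype no library could be left out and no paired analysis was possible because each genotype has a single library. The 10 genes had a median log2 ratio of -0.20 as deposited. It was -0.33 with upper-quartile scaling or a sum of 1000000 over protein-coding genes and -0.49 with a sum of 1000000 over all genes, where 4 of them, Lgals3 and S100a6 besides Anxa1 and S100a4, were at least 1.5-fold lower. The median of all genes tested moved to -0.099, -0.098 and -0.248 with these 3 scalings. Family medians with upper-quartile scaling, protein-coding sum and full sum were -0.304, -0.300 and -0.463 for galectins (-0.17 as deposited), -0.317, -0.341 and -0.477 for S100 genes (-0.21) and -0.0963, -0.0917 and -0.253 for annexins (0.03). The galectin median was -0.327 with a mean of at least 5 FPKM, and the S100 median -0.337 with a pseudocount of 0.1.

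Over all genes 651 were at least 1.5-fold lower and 926 higher as deposited. The lower count was 1095 with upper-quartile scaling, 1254 with the protein-coding sum, 2179 with the full sum, 272 with a pseudocount of 5, 432 at a mean of at least 5 FPKM and 395 over protein-coding genes only. The higher count was 589 with upper-quartile scaling, 408 with the full sum and 557 with a pseudocount of 5. Among the tested galectin, S100 and annexin genes, S100a3 and Anxa9 rested on the fewest fragments, about 39 and 24 and about 71 and 85.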

Other observations

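Some marker genes of other cell types were present without their companions. Epcam, an epithelial adhesion molecule, was at 16.3 FPKM in the control (Nrn1+/-) and 12.2 FPKM in the knockout (Nrn1-/-) while the epithelial keratin gene Krt8 was at 0.0599 and 0.0782 FPKM. Pecam1, an adhesion molecule of endothelium and leukocytes, was at 34.6 and 24.6 FPKM while the endothelial gene Cdh5 was at 0.00505 and 0.0199 FPKM. Fcer1g, a signalling chain of myeloid and NK cells, was at 17.9 and 12.0 FPKM while Csf1r, the receptor of the macrophage growth factor, was at 0.0260 and 0 FPKM. Kit, a growth factor receptor, was at 4.16 and 2.39 FPKM while the mast cell protease gene Cpa3 was at 0.0927 and 0 FPKM. Sdc1, the plasma cell surface proteoglycan, was at 0.972 and 2.62 FPKM, and Itga2b, a platelet integrin, at 2.34 and 1.18 FPKM.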
